A study of Mus musculus with 10 samples.

Results

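The genes described here are Dmbt1, Klk14, Muc5b, Scgb1c1 and Aqp5, 5 of the 24421 genes in the count table, which encode proteins of nasal mucus or of the glands that make it. They were chosen on their measured values in these libraries. Dmbt1 and Klk14 were picked for counts that were higher in every library of homozygous mice, and Muc5b, Scgb1c1 and Aqp5 as mucus genes that stayed level. Their levels by genotype are therefore given as a description, without a test. All 5 passed the filter on low counts, as did 17197 genes in total.

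RNA was taken from the main olfactory epithelium (MOE), the lining of the nasal cavity that holds the olfactory sensory neurons, of mice at postnatal day 14. The 10 libraries came from 3 wild-type mice (WT), 3 heterozygous mice (het) and 4 homozygous mice (homo). Het and homo mice carried 1 or both copies of chromosome 10 without TAAR enhancers 1 and 2, a pair of elements in the cluster of trace amine-associated receptor (Taar) genes, and WT mice carried none. No treatment is given. The labels give the strain as C57BL/6, while the study's reporting sheet describes mixed C57BL/6J and 129 backgrounds and both sexes. The deletion was made by CRISPR-Cas9 in the germ line, is present in every cell and was studied as 1 line. The tissue was used whole, so that fewer cells of a type and less RNA per cell cannot be told apart. The paper describes the mice of the 3 genotypes as littermates, without saying which mice shared a litter. The labels do not say how the replicates were collected, and the spread between libraries may be in part technical.

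Nasal mucus is a gel of secreted mucins laid over a watery fluid. Bowman's glands under the olfactory epithelium, the larger nasal glands and the secretory cells of the respiratory lining release mucins, water, peptidases, antimicrobial proteins and small ligand-binding proteins into it. Odorants cross this layer to reach the cilia of the sensory neurons, and it traps and kills microbes. Among the 5 genes, Muc5b encodes a gel-forming mucin, Aqp5 a water channel of gland cells, Scgb1c1 a small secreted protein of the secretoglobin family, Klk14 a secreted trypsin-like serine peptidase, and Dmbt1 a large secreted glycoprotein with scavenger receptor cysteine-rich (SRCR) domains that binds bacteria.

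Of the 5 genes, 4 lie on chromosome 7, none on the chromosome that carries the deletion. On mm10 Klk14 covers 43690418 to 43695536 of chromosome 7 in 5 exons, and Dmbt1 covers 131032053 to 131121630, 87.3 Mb further on, in 51 exon blocks. Scgb1c1 (140845547 to 140846769, 3 exons) and Muc5b (141839070 to 141873084, 49 exons) lie 992 kb apart on the same chromosome. Aqp5 is on chromosome 15 (99590782 to 99594829, 4 exon blocks). All 5 are on the plus strand.

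RefSeq (GRCm38.p6) start-site sequences were matched for 3 of the 5 genes. The 150 bases before the annotated start are printed for Klk14, at chr7:43690268-43690417 (plus strand), which was higher in homo mice, and for Scgb1c1, at chr7:140845397-140845546 (plus strand), whose groups overlapped. Capitals mark matches, on either strand, to the core promoter letters TATAAA or its variant ATAAAA, to the GC box GGGCGG and to the box CCAAT.
Klk14: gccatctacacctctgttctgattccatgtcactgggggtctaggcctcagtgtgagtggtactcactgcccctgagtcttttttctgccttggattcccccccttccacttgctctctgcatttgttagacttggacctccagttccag
Scgb1c1: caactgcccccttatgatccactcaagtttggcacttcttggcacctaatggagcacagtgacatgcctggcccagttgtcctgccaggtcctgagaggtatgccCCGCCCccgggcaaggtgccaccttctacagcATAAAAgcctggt
The Scgb1c1 window held ATAAAA, beginning 13 bases before the annotated start, and the GC box on the minus strand, 45 bases before it. The Klk14 window held none of these letters. Among 32851 promoters of the same length, ATAAAA was found in 10.1%, GGGCGG in 28.6%, CCAAT in 24.5% and TATAAA in 7.57%. The GC content was 52.7% for Klk14 and 57.3% for Scgb1c1, against a median of 54% over all promoters.

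Library totals ranged from 21423861 to 27712948 counts. Values are given as CPM (each count scaled by the total of its library), and per kilobase of exon where genes are compared with each other. All 9 markers of mature sensory neurons were detected in each genotype, with sums of 9054 to 10829 CPM. Counts of Y-linked genes exceeded those of Xist in 4 libraries (WT-1, het-1 and the pair homo-2 and homo-3) and were at most 3 in the other 6, so that each genotype held both sexes. With homo mice set against WT mice, 12 of 17197 genes (0.0698%) passed an edgeR adjusted p of 0.05. Against het mice 13 (0.0756%) passed, and none (0%) did in the comparison of het with WT. Of these, 12 in each of the first 2 comparisons were Taar genes, lower in homo mice, and the other was Bglap3.

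Dmbt1 was several times higher in homo than in WT or het mice. It measured 202, 154 and 110 CPM in WT-1, WT-2 and WT-3, and 170.4, 152 and 109.7 CPM in het-1, het-2 and het-3. In the homo libraries it measured 837, 386, 342 and 393 CPM in the same order. Every homo library lay above every WT and het library, and the ranges of WT and het libraries overlapped, with WT-1 above every het library. The lowest homo library held 169.5% of the highest WT or het value.

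The mean level of Dmbt1 was at 155 ± 45.8 (SD, n = 3), 144 ± 31.1 (SD, n = 3) and 489 ± 233 CPM (SD, n = 4) in WT, het and homo mice. The fitted log2 difference was 1.66 (SE 0.39) between homo and WT and 1.77 (SE 0.39) between homo and het. Between het and WT it was -0.11 (SE 0.40), within its error of 0. Homo-1 was more than double any other homo library in Dmbt1 CPM. Without it the homo mean was 374 ± 27.9 CPM (SD, n = 3), and the log2 difference was 1.26 against WT and 1.37 against het.

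Klk14 was also higher in homo mice, at a much lower level and by a smaller margin. Its counts were 169, 117 and 127 in the WT libraries, 131, 95 and 52 in the het libraries, and 235, 333, 150 and 235 in the homo libraries. Scaled to depth, WT libraries measured 6.31, 4.57 and 5.49 CPM and het libraries 5.75, 3.99 and 2.11 CPM. The homo libraries measured 11, 14.7, 6.35 and 8.48 CPM. Homo-3 stood only just above WT-1, and the other homo libraries stood clear of all WT and het libraries.

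The exact Poisson intervals (95%), which cover counting error only, were 5.38 to 7.45 CPM for Klk14 in homo-3 and 5.4 to 7.34 CPM in WT-1, so that these 2 libraries could not be told apart at this depth. Mean Klk14 was at 5.46 ± 0.871 (SD, n = 3), 3.95 ± 1.82 (SD, n = 3) and 10.1 ± 3.6 CPM (SD, n = 4) in WT, het and homo mice. The fitted log2 difference was 0.90 (SE 0.32) between homo and WT, 1.37 (SE 0.33) between homo and het and -0.47 (SE 0.36) between het and WT. The larger difference against het rested in part on het-3, the lowest library. Without het-3 it was 1.06, and without homo-2, the highest library, it was 1.11.

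A full separation of the homo libraries from the other 6, upwards, was thus seen in 2 of the 5 genes. It was seen in 60 of 17197 genes (0.349%). The genes were picked for this separation, and nothing is read from the comparison.

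**Figure D1:**
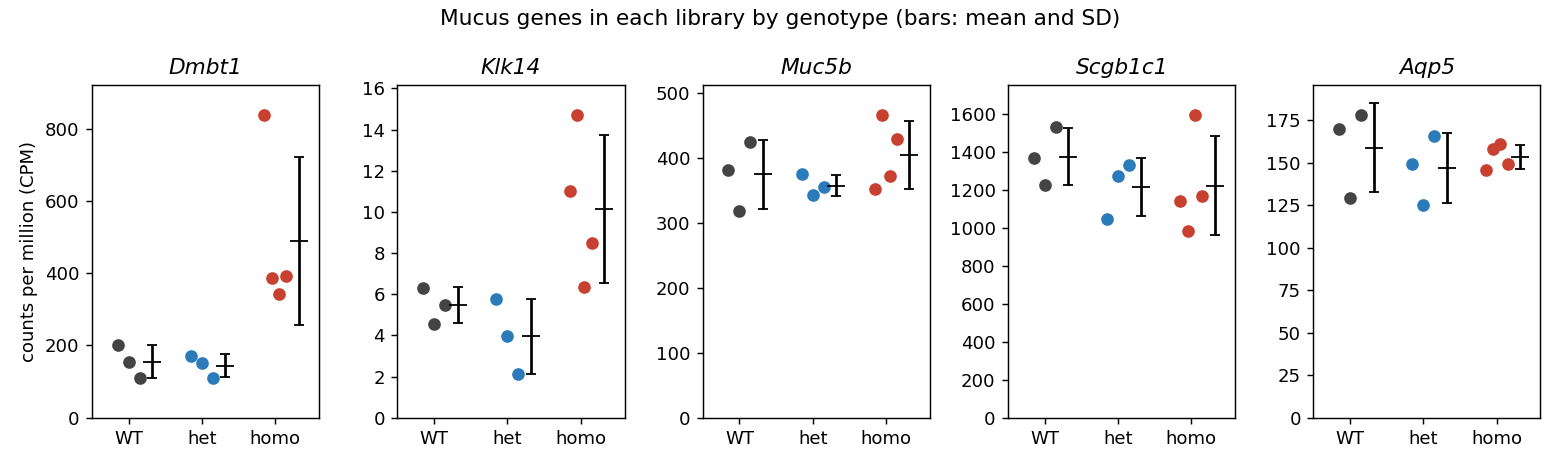
CPM (vertical axis, from 0) of the 5 mucus genes in each library, by genotype. Each point is 1 library and the black bars give the mean and SD of WT (n = 3), het (n = 3) and homo (n = 4). The homo points of Dmbt1 (342 to 837 CPM) lie above all WT and het points (109.7 to 202 CPM), the lowest homo point of Klk14 touches the highest WT point, and the points of Muc5b, Scgb1c1 and Aqp5 overlap.

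The gel-forming mucin Muc5b was at a like level in the 3 genotypes. It measured 382, 319 and 424 CPM in WT, 375, 343 and 355 CPM in het, and 352, 466, 373 and 430 CPM in homo libraries. The lowest and the highest homo libraries fell on both sides of the WT mean of 375 ± 52.9 CPM (SD, n = 3). The homo mean was 405 ± 52 CPM (SD, n = 4), and the fitted log2 difference was 0.12 (SE 0.11) against WT and 0.18 (SE 0.11) against het.

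Scgb1c1 had the most counts of the 5 genes and the smallest transcript. It measured 1369.7, 1228 and 1531 CPM in WT, 1045, 1274 and 1334 CPM in het, and 1142, 985, 1594 and 1170 CPM in homo libraries. Homo libraries gave both the highest (homo-3) and the lowest (homo-2) value of all 10. Its fitted log2 difference was -0.17 (SE 0.14) between homo and WT, 0.01 (SE 0.14) between homo and het, and -0.18 (SE 0.15) between het and WT.

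The water channel Aqp5 had the smallest difference of the 5 genes between homo and WT mice. It measured 169.6, 129 and 178 CPM in WT, 149, 125 and 166 CPM in het, and 146, 158, 161 and 149 CPM in homo libraries. All homo libraries lay inside the range of the WT libraries. The log2 difference was -0.04 (SE 0.11) against WT and 0.07 (SE 0.11) against het. Leaving out each library in turn kept the homo against WT difference of Aqp5 between -0.18 and 0.04, that of Muc5b between 0.01 and 0.21 and that of Scgb1c1 between -0.32 and -0.09.

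**Figure D2:**
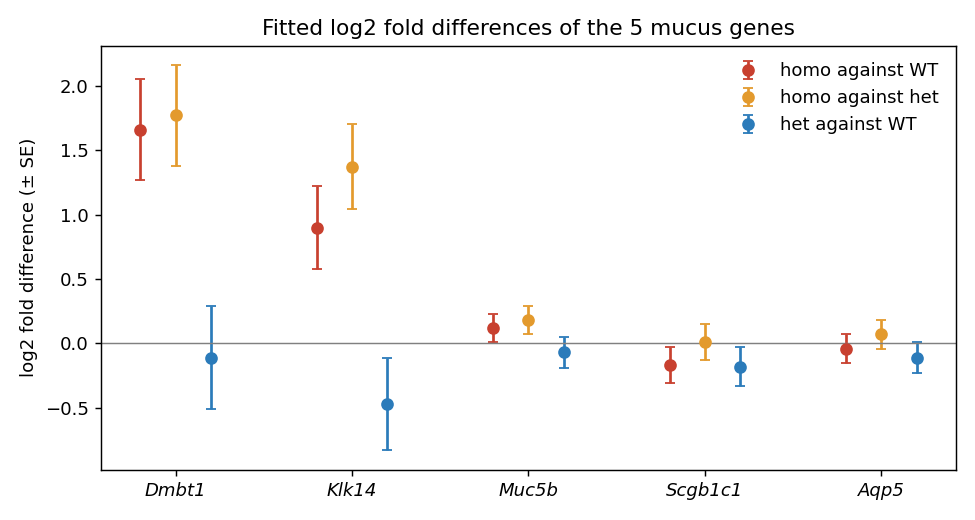
Fitted log2 fold difference (vertical axis) of each of the 5 mucus genes in the 3 comparisons between genotypes, with its SE as the bar. Dmbt1 (1.66 and 1.77) and Klk14 (0.90 and 1.37) lie above 0 in both comparisons that involve homo mice, and Muc5b, Scgb1c1 and Aqp5 lie between -0.18 and 0.18.

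Per kilobase of exon, Dmbt1 changed its place in the order of the 5 genes. In WT mice Scgb1c1 was highest, at 3024 ± 333 CPM per kb (SD, n = 3), followed by Aqp5 at 61.1 ± 10.1, Muc5b at 25 ± 3.54, Dmbt1 at 22 ± 6.49 and Klk14 at 4.3 ± 0.685. The ranges of Muc5b (21.3 to 28.3) and Dmbt1 (15.6 to 28.6) overlapped, and those of all other neighbours in the order did not. In homo mice Dmbt1 was at 69.4 ± 33 CPM per kb (SD, n = 4), above Muc5b at 27.1 ± 3.48 in every library. Its mean was also above that of Aqp5 at 59.1 ± 2.77 (SD, n = 4), but its range of 48.4 to 119 overlapped that of Aqp5 (56 to 61.8). Klk14 was lowest in each genotype.

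The spread between mice of 1 genotype was wide for the genes that were higher in homo mice. The SD of log2 CPM within genotype was 0.494 for Dmbt1 and 0.534 for Klk14, and 0.166 for Muc5b, 0.226 for Scgb1c1 and 0.177 for Aqp5. The median over all genes tested was 0.177. For Dmbt1 the WT and het libraries with the same number were close. The het value was 84.5%, 98.5% and 99.8% of the WT value for numbers 1, 2 and 3, although WT libraries themselves ranged from 110 to 202 CPM. For Klk14 the same shares were 91%, 87.3% and 38.5%.

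Dmbt1 and Klk14 are also given separately for the libraries where Y-linked genes exceeded Xist and for those where Xist was higher. Every homo library was above all others for both genes, so any split keeps that order and nothing is read from it. In the first kind Dmbt1 was 342 to 386 CPM in 2 homo libraries and 170.4 to 202 CPM in 2 WT or het libraries. In the second it was 393 to 837 CPM in 2 homo and 109.7 to 154 CPM in 4 WT or het libraries. Klk14 measured 6.35 to 14.7 CPM in the homo and 5.75 to 6.31 CPM in the WT or het libraries of the first kind, and 8.48 to 11 CPM and 2.11 to 5.49 CPM in those of the second.

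The deviations of the 5 genes from their genotype means went in different directions. Across the 10 libraries, a description over points that share depth and dissection, Pearson's r of these deviations on the log2 scale was 0.498 between Dmbt1 and Klk14 and 0.597 between Muc5b and Aqp5. It was -0.692 between Klk14 and Scgb1c1 and -0.398 between Dmbt1 and Scgb1c1. Homo-2 was the highest library for Klk14 and Muc5b and the lowest for Scgb1c1, and homo-1 was the highest for Dmbt1 and the lowest homo library for Muc5b and Aqp5.

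The genes whose levels over the 10 libraries were most like Dmbt1 were Obp2b, BC048546 and Lcn3, with Pearson's r of log2 CPM of 0.962, 0.959 and 0.939. Obp2b encodes an odorant-binding protein and Lcn3 a lipocalin, both small ligand carriers secreted by nasal glands. Obp2b was at 991 ± 406 (SD, n = 3), 1012 ± 306 (SD, n = 3) and 2739 ± 1251 CPM (SD, n = 4) in WT, het and homo mice. BC048546 measured 297 ± 37.8 CPM (SD, n = 3), 319.8 ± 68.8 CPM (SD, n = 3) and 598 ± 226 CPM (SD, n = 4) in the same order, and Lcn3 measured 317 ± 76.8 CPM (SD, n = 3), 251 ± 17 CPM (SD, n = 3) and 798 ± 404 CPM (SD, n = 4). All 3 were highest in homo-1, like Dmbt1. After the genotype means were removed, r with Dmbt1 was 0.905, 0.918 and 0.772.

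Obp2b and Lcn3 belong to a list set here as markers of nasal glands that make odorant-binding proteins and lipocalins. The whole list is given beside Dmbt1, and which gland made each of its genes was not examined. All 6 markers in the table (Obp1a, Obp2a, Obp2b, Lcn3, Lcn4 and Lcn11) were detected, and none was at 0. Their summed level was 4495 to 9037 CPM in WT, 3663 to 8129.8 CPM in het and 6930.1 to 15848 CPM in homo libraries, with overlap between the groups. All 6 were higher in homo than in WT mice by the fitted mean, with a median log2 difference of 1.41. None had an edgeR adjusted p under 0.05, and 3 of the 6 had an unadjusted p under 0.05, against 2.41% of all genes. These 3 include Obp2b and Lcn3, which led to the list through their likeness to Dmbt1. Dmbt1 was itself picked for high homo values, so nothing is read from that share.

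Single markers of this list moved apart. In homo against WT mice, the log2 difference was 0.11 (SE 0.53) for Obp1a and 1.5 (SE 0.50) for Obp2a, both with an edgeR adjusted p of 1. Obp1a and Lcn11 were highest in homo-2 (7002 and 1264 CPM) and Lcn3 and Lcn4 in homo-1 (1377 and 552 CPM). Obp2a and Obp2b were also highest in homo-1 (4422 and 4508 CPM), with 4301 and 2676 CPM in homo-2. The part of these glands in the Dmbt1 values was not tested.

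**Figure D3:**
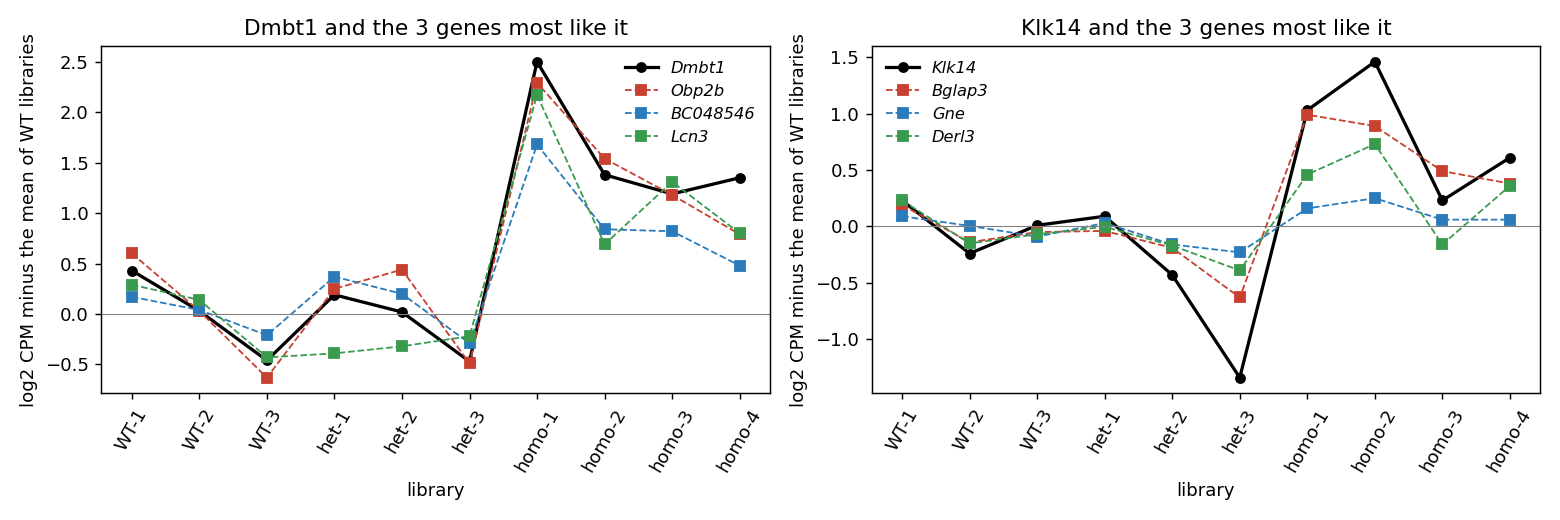
Log2 CPM of Dmbt1 (left) and Klk14 (right), each with the 3 genes of most similar pattern, in the 10 libraries (horizontal axis), as the difference from the mean of the WT libraries. Dmbt1 and its like genes peak in homo-1, and Klk14, Gne and Derl3 peak in homo-2 and are lowest in het-3.

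The genes most like Klk14 were Bglap3 (r = 0.949), Gne (r = 0.942) and Derl3 (r = 0.928). Bglap3 is related to osteocalcin and has near-identical copies. How reads that fit several copies were counted is not stated, so its value may be affected. It was at 13.9 ± 1.65 (SD, n = 3), 11.5 ± 2.23 (SD, n = 3) and 22.6 ± 4.33 CPM (SD, n = 4) in WT, het and homo mice. Gne encodes the enzyme that starts sialic acid synthesis, and Derl3 a protein that takes misfolded proteins out of the endoplasmic reticulum. Gne was at 41.1 ± 2.3 (SD, n = 3), 37.8 ± 3.32 (SD, n = 3) and 44.9 ± 2.28 CPM (SD, n = 4) in WT, het and homo mice, a much smaller difference than that of Klk14. Derl3 measured 9.34 ± 1.32 CPM (SD, n = 3), 8.19 ± 1.03 CPM (SD, n = 3) and 12.1 ± 2.85 CPM (SD, n = 4) in the same order. With the genotype means removed, r with Klk14 was 0.882, 0.855 and 0.868.

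For Muc5b the genes most like it were Sox13, Pyroxd2 and Tom1l2 (r = 0.962, 0.951 and 0.948). For Scgb1c1 they were Cldnd1, Ppih and Spa17 (r = 0.949, 0.947 and 0.945), and for Aqp5 they were Tmem246, Wfdc2 and Hexim2 (r = 0.941, 0.93 and 0.924). Wfdc2, a secreted peptidase inhibitor of airway glands, was at 125 ± 22.6 (SD, n = 3), 104 ± 18.1 (SD, n = 3) and 115 ± 10.6 CPM (SD, n = 4) in WT, het and homo mice. No gene was among the 3 most like genes of more than 1 of the 5.

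The rest of the mucus system was examined in 9 lists of related genes, 104 genes tested besides the 5. In edgeR 0 of the 104 changed in any of the 3 comparisons at an adjusted p of 0.05, and DESeq2 and limma called 0 as well. Over all genes edgeR called 0.0698% (homo against WT), 0.0756% (homo against het) and 0% (het against WT). Having 0 calls in a list is therefore near the share over all genes. The genes that edgeR called were Taar genes and Bglap3, so Dmbt1 and Klk14 were not among them either. Both were chosen on their values, so nothing is read from this, and their calls by other tools are not given. An unadjusted p under 0.05 was found for 7 genes (6.73%) in homo against WT mice, 7 (6.73%) in homo against het mice and 3 (2.88%) in het against WT mice. The shares over all genes were 2.41%, 2.48% and 1.92%. The median log2 difference of the 104 genes was -0.001 between homo and WT and 0.072 between homo and het mice, and that of all genes was 0.0001 and -0.001. The lists were set with earlier results of these data known.

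Among mucins, 8 genes besides Muc5b were tested and none changed. Their median log2 difference between homo and WT mice was 0.15. Muc2, also a marker of sustentacular cells, was at 204 ± 38.9 (SD, n = 3) and 224 ± 41 CPM (SD, n = 4) in WT and homo mice. The membrane mucin Muc4 measured 44 ± 4.65 CPM (SD, n = 3) and 53.9 ± 10.9 CPM (SD, n = 4), and Muc1 35.6 ± 4.52 CPM (SD, n = 3) and 37.2 ± 1.93 CPM (SD, n = 4). The differences ranged from -0.15 (SE 0.20) for Muc13 to 0.49 (SE 0.41) for Muc19, a gel-forming mucin of glands that was under 2 CPM in every library.

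Of the 21 tested genes of mucin assembly, with the transcription factors of secretory cells and the sugar-adding enzymes, none changed and the median log2 difference was -0.01 between homo and WT mice. Agr2, which folds mucins in the endoplasmic reticulum, was at 203 ± 10.4 (SD, n = 3) and 189 ± 27.7 CPM (SD, n = 4) in WT and homo mice. Xbp1, a transcription factor of secretory load, measured 179 ± 17.7 CPM (SD, n = 3) and 178 ± 13.1 CPM (SD, n = 4), and Galnt7, an enzyme that starts mucin sugar chains, 63.4 ± 5.75 CPM (SD, n = 3) and 63.6 ± 8.15 CPM (SD, n = 4). The extremes were Itln1 at -0.51 (SE 0.31) and Gcnt4 at 1.03 (SE 0.41). Gcnt4, a sugar-branching enzyme, was below 1.5 CPM in every library, at 0.346 to 0.523 CPM in WT, 0.285 to 0.631 CPM in het and 0.708 to 1.21 CPM in homo mice, with an edgeR adjusted p of 1 against WT.

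Of the family of SRCR proteins that holds Dmbt1, the other 14 tested genes had a median log2 difference of 0.02 between homo and WT mice. None changed at the edgeR threshold, at which Dmbt1, chosen on its values, was not called either. Values ranged from -0.23 (SE 0.29) for Cd163l1 to 0.58 (SE 0.34) for Cd163, both scavenger receptors of leukocytes. The 3 most abundant were Lgals3bp, Tmprss2 and Loxl2. Lgals3bp was at 72.2 ± 7.22 (SD, n = 3) and 78.6 ± 14.1 CPM (SD, n = 4) in WT and homo mice, the membrane peptidase Tmprss2 at 65 ± 4.5 (SD, n = 3) and 67 ± 4.58 CPM (SD, n = 4), and the collagen cross-linking enzyme Loxl2 at 58.8 ± 13.6 (SD, n = 3) and 66.4 ± 5.01 CPM (SD, n = 4).

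Of the 13 kallikreins, only Klk14, Klk1 and Klk11 passed the filter, and the other 10 had at most 17 counts in a library. Klk1, a tissue kallikrein of glands, measured 7.85, 17.4 and 12.7 CPM in WT, 10.7, 14.4 and 12.3 CPM in het, and 5.97, 66.5, 5.93 and 16.1 CPM in homo libraries. Its high mean in homo mice rested on homo-2, and its log2 difference from WT mice of 0.91 (SE 0.90) became -0.45 without that library. Klk11 was under 2 CPM in every library and differed by -0.09 (SE 0.45).

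Inhibitors of serine peptidases and the peptidase-activated receptor F2rl1 were listed as possible partners of Klk14. The 13 genes tested had a median log2 difference of 0.03 between homo and WT mice, and none changed. Wfdc18 was at 433 ± 10.7 (SD, n = 3) and 495 ± 107 CPM (SD, n = 4) in WT and homo mice. Spint2, a membrane-bound inhibitor, measured 205 ± 24.1 CPM (SD, n = 3) and 179 ± 30.8 CPM (SD, n = 4). The extremes were Serpina3n at 0.41 (SE 0.28) and Wfdc12 at -0.24 (SE 0.78).

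The secretoglobins had 25 members in the table, of which 21 had at most 11 counts in a library. Besides Scgb1c1 the tested genes were Scgb2b27, Scgb1b27 and Scgb3a1. Scgb1b27 was at 38.9 ± 13.5 (SD, n = 3) and 59.1 ± 36 CPM (SD, n = 4) in WT and homo mice, with 0.62 (SE 0.61) as the log2 difference, and Scgb2b27 61.8 ± 2.12 CPM (SD, n = 3) and 86 ± 43.3 CPM (SD, n = 4). Both were highest in homo-2, and without that library the log2 difference of Scgb1b27 was 0.11. Scgb3a1 differed by -0.12 (SE 0.16).

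None of the 5 other aquaporins tested changed. Aqp4 was at 524 ± 52.3 (SD, n = 3) and 512 ± 48.5 CPM (SD, n = 4) in WT and homo mice, Aqp3 318 ± 28.8 CPM (SD, n = 3) and 299.9 ± 16.2 CPM (SD, n = 4), and Aqp1 274 ± 38.5 CPM (SD, n = 3) and 272 ± 13.9 CPM (SD, n = 4). The lowest value was that of Aqp9, which was under 1 CPM in every library and differed by -0.99 (SE 0.60, edgeR adjusted p of 1).

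The 19 tested genes of ion and water transport had a median log2 difference of -0.03 and none changed. Atp1b1, a subunit of the sodium pump, was at 1206 ± 20.4 (SD, n = 3) and 1149.5 ± 14.8 CPM (SD, n = 4) in WT and homo mice. The chloride importer Slc12a2 was at 583 ± 57.5 (SD, n = 3) and 564 ± 26.5 CPM (SD, n = 4) in WT and homo mice. The extremes were the chloride channel Cftr at -0.25 (SE 0.15) and the anion exchanger Slc26a4 at 0.51 (SE 0.23, edgeR adjusted p of 1).

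Secreted defence proteins were tested in 19 genes, with a median log2 difference of -0.02 between homo and WT and 0.18 between homo and het mice, and none changed. Bpifa1, a surfactant-like protein of the airways, was at 3904 ± 360.4 (SD, n = 3) and 3839.8 ± 512 CPM (SD, n = 4) in WT and homo mice. The lectin Reg3g was at 349 ± 62.5 (SD, n = 3) and 388 ± 120.2 CPM (SD, n = 4) in WT and homo mice. Lactoferrin (Ltf), which binds iron and is also listed with the gland markers, measured 397, 382 and 319 CPM in WT, 733, 249 and 223 CPM in het, and 703, 954, 508 and 537 CPM in homo libraries. Its log2 difference between homo and WT mice was 0.89 (SE 0.47) with an edgeR adjusted p of 1. The lowest value was that of the peroxidase Lpo, at -1.34 (SE 0.55), where WT-1 held 9.04 CPM and all other libraries between 0.589 and 2.24 CPM.

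**Figure D4:**
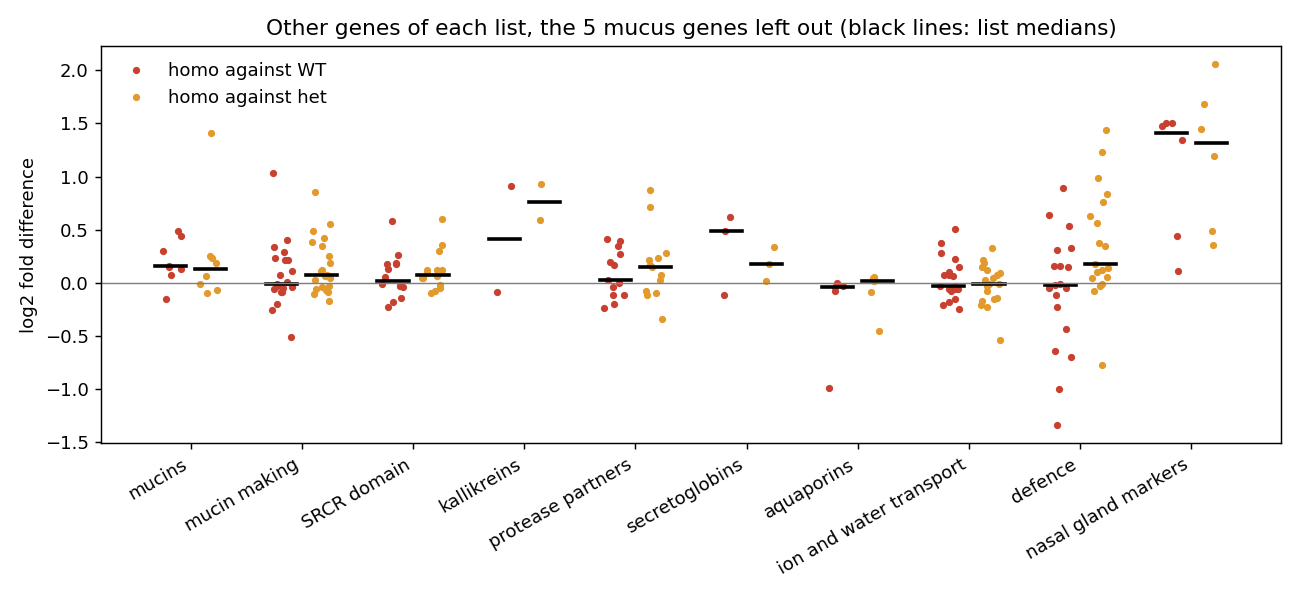
Log2 fold difference (vertical axis) of the tested genes of each list, without the 5 mucus genes, for homo against WT (red) and homo against het (orange). Each point is 1 gene and black lines give list medians, which lie near 0 for the longer mucus lists and at 1.41 and 1.32 for the 6 nasal gland markers.

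Markers of the other cell types of the tissue were summed beside the 5 genes. Markers of Bowman's and nasal glands, leaving out Muc5b and Aqp5, summed to 6885 to 9729 CPM in WT, 7251 to 16701 CPM in het and 7191 to 19216 CPM in homo libraries. Bpifb9b made up most of each sum, with 18170 CPM in homo-2 and 15878 CPM in het-1. Ciliated respiratory cells (538 to 611 CPM), secretory respiratory cells (5039.7 to 6422 CPM) and sustentacular cells (5076 to 5933 CPM) had overlapping sums in the 3 genotypes. So did leukocytes (65.3 to 86.8 CPM), bone (1880.4 to 4705 CPM) and basal and squamous cells (111 to 139 CPM). Of the red cell markers, 4 had no count in any library and only Alas2, at 8.84 to 32.1 CPM, was tested. How reads of these 4 were annotated and counted is not stated, so their lack of counts is not read as absence of red cells. None of the markers changed in edgeR. Beside Klk14, Itgam, a marker of myeloid cells, was lowest in het mice, at -0.67 against WT on the log2 scale with no call. Csf1r, Adgre1 and Cd68 of the same list differed by -0.09, 0.05 and 0.001. The median of the 8 leukocyte markers was -0.46, with 2 above 0. In het-1, het-2 and het-3 Itgam measured 3.33, 3.74 and 3.86 CPM, and Klk14 5.75, 3.99 and 2.11 CPM. The part of leukocytes in the low het values of Klk14 was not tested.

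No tested gene around Dmbt1 or Klk14 changed, which is near the shares of all genes called. These were 0.0698% (homo against WT), 0.0756% (homo against het) and 0% (het against WT). Within 1 Mb of Dmbt1, 13 genes were tested and 0 changed in each comparison, by edgeR, DESeq2 or limma, and 0 had an unadjusted p under 0.05. Their log2 differences between homo and WT mice ranged from -0.04 to 0.21. Apart from Fgfr2, which overlaps Dmbt1, the nearest genes were Htra1, a secreted peptidase 46.39 kb before Dmbt1, at 0.21 (SE 0.13), and 5430419D17Rik, 52.77 kb after it, at 0.13 (SE 0.27). Within 1 Mb of Klk14, 32 genes were tested and 0 changed by the same tools. Of the 32, 2 had an unadjusted edgeR p under 0.05 in each comparison. Over all genes 2.41% (homo against WT), 2.48% (homo against het) and 1.92% (het against WT) did. The nearest were Ctu1, 12.12 kb before it, at 0.03 (SE 0.16), and Siglece, 30.26 kb before it, at -0.46 (SE 0.31). The range was -0.52 to 0.91, and the upper end was Klk1. Mybpc2, a muscle protein gene 806.2 kb after Klk14 and named after its values were seen, differed by 0.89 (SE 0.28, edgeR adjusted p of 1) at 1.07 CPM in WT and 2 CPM in homo mice on average.

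Reads shared with overlapping genes were examined as far as the counts allow. Dmbt1 lies within the span of Fgfr2 on the opposite strand, through 1 of 27 annotated Fgfr2 transcripts, and they share 0 exon bases. Fgfr2 had 1167 to 1787 counts in a library and differed by 0.14 (SE 0.12) between homo and WT mice. Klk14 shares 287 exon bases with 2310002F09Rik, and Scgb1c1 shares 85 with C330022C24Rik, both on the opposite strand. These had at most 14 and 4 counts in a library. The strand setting of the counting was not stated.

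**Figure D5:**
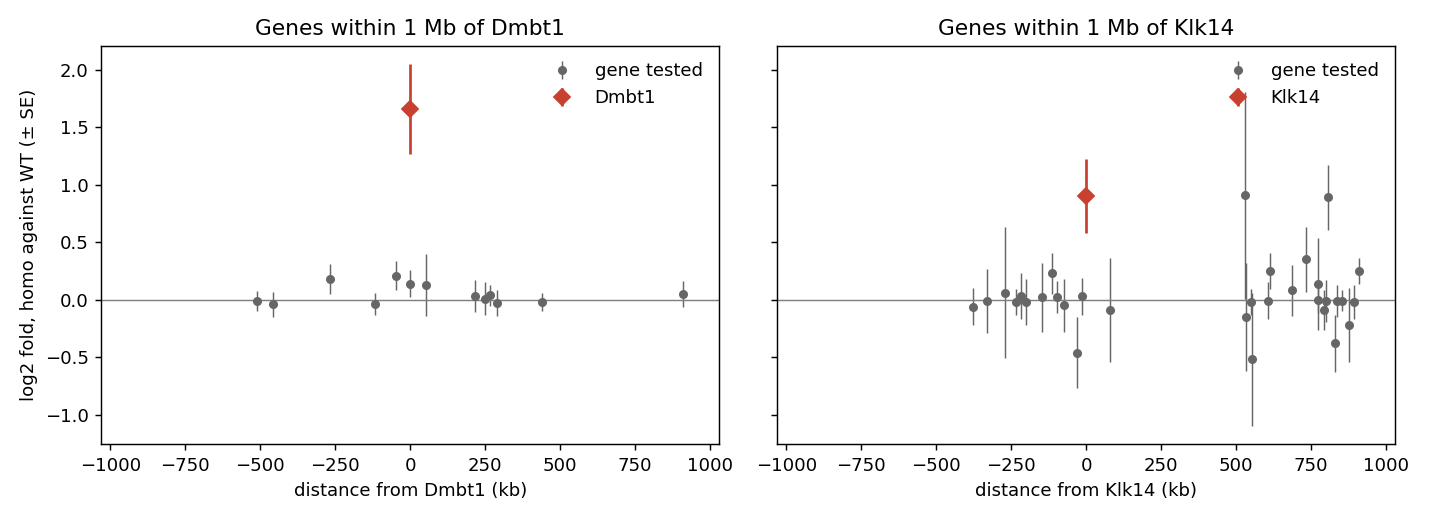
Log2 fold difference between homo and WT mice (vertical axis, bars give the SE) of the genes tested within 1 Mb of Dmbt1 (left) and Klk14 (right), against their distance in kb. Dmbt1 (1.66) lies above all 13 neighbours (-0.04 to 0.21), and of the 32 neighbours of Klk14 (0.90) Klk1 (0.91, with a wide SE) lies just above it and Mybpc2 (0.89) just below.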

How the data were processed

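RNA of the whole MOE was extracted, and directional libraries were made after poly(A) selection. Per the labels, the authors trimmed reads (Trimmomatic 0.36), aligned them to mm10 (HISAT2 2.1.0) and counted reads per gene with featureCounts (Subread 1.6.2), and the deposited raw counts were used here. The annotation and the handling of strand and multiple alignments are not given in the sources used here. A table of normalized signal, which the authors made by dividing the counts of each library by a DESeq2 (1.20.0) size factor, was also deposited and served the limma alternative only.

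Groups came from sample titles. In R 4.3.3, edgeR 4.0.16 (filterByExpr with a minimum count of 10, TMM, robust quasi-likelihood F tests, two-sided) modelled the 10 libraries by genotype alone. The Benjamini-Hochberg adjustment covered 17197 genes, and a change means an adjusted p under 0.05. The common biological coefficient of variation was 13.9%. The procedure was tested on simulated data. CPM used library totals (21423861 to 27712948 counts), and Poisson intervals cover counting error only. Positions and exon lengths came from GENCODE M21 on mm10. No 2 libraries of a genotype were alike within sampling noise, by a chi-square test.

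The 5 genes and the gene lists were chosen with earlier results of these data known, so the 5 genes have no p-value and are left out of list counts. The text names, for each list, genes that changed, the 3 of highest CPM, the 2 extremes between homo and WT mice, and for each of the 5 genes the 3 of highest correlation and its nearest tested neighbours. Some genes under this rule are not reported here. Other genes were named after their values were seen. WT and het libraries with the same number deviated together (r 0.326, 0.285 and 0.235 over all genes tested), so these numbers pair the libraries, as read from the data. WT and homo libraries did not (r -0.0995, -0.0122 and -0.0734), nor did het and homo libraries throughout (r -0.148, 0.159 and 0.0676). Alternatives were RLE factors (DESeq2 size factors) in edgeR, library totals, no filter, a mean CPM of at least 1, DESeq2 1.42.0, limma 3.58.1 on log2 of the normalized values plus 1, a replicate block, a sex term and leaving out each library.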

Additional observations from a re-analysis of the deposited data

Results flagged for a closer look

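In the homo group, 76 values (the 5 genes, list sums, named list genes and like genes) were checked with Dixon's criterion for 1 library set apart from its 3 fellows. It picked out 4 of the 76, which is near the share of about 1 in 20 that chance alone gives. Groups of 3 were not checked. Dmbt1 measured 837 CPM in homo-1 against 342 to 393 CPM in the other homo libraries. Klk1 measured 66.5 CPM in homo-2 against 5.93 to 16.1 CPM in the others, and the summed kallikreins without Klk14 were 68.8 CPM there, which is mostly Klk1. Spint2 was 133 CPM in homo-2 against 188 to 198 CPM, near the lowest het value of 135 CPM.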

How the results depend on the processing

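Each of 45 results was computed again under 8 other settings with all libraries (9 for the folds of the 5 genes, with the ratio of mean CPM) and in 10 fits without 1 library, as far as it applied, giving 821 values. Of these 809 kept their direction and call, or lay within the spread or 1.5 times a count. All 285 values of the 5 genes lay within 1 within-genotype SD of those reported, which says little for Dmbt1 and Klk14, whose SD is wide. The replicate block moved counts over all genes, from 12 to 19 between homo and WT and from 13 to 24 between homo and het mice, and it left 0 in het against WT mice, the comparison in which numbers pair libraries. It changed no other call among the lists and neighbours. Homo-4 has no partner and drops out of the block. Under the block Dmbt1 differed by 1.71 and Klk14 by 0.92 between homo and WT mice. Single genes with no call turned sign in homo against WT mice. Aqp1, at -0.0026, turned to 0.05 in the block and to 0.0026 in limma. On leaving out each library, the log2 difference ranged from -0.08 to 0.12 for Aqp1, from -0.33 to 0.0038 for Muc13, from -0.45 (without homo-2) to 1.24 for Klk1, from -0.52 to 0.49 for Klk11 and from -0.9 to 0.6 for Wfdc12. The cause was not tested. Klk14 in homo-3 stood above WT-1 by 0.0082 on the log2 scale of CPM and by 0.0027 with DESeq2 size factors, within counting error.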

Other observations

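Homo-2 was the highest of the 10 libraries for 20 of the 104 mucus list genes, and for 5 to 17 of them in each other library. Muc5ac, a gel-forming mucin of goblet cells, measured 32.7 CPM there and 1.77 to 11.1 CPM in the other 9 libraries. Bhlha15, a transcription factor of secretory gland cells, measured 54.2 CPM against 12.4 to 28.7 CPM. Scgb1b27 measured 110.5 CPM against 19 to 66.6 CPM, and Ltf 954 CPM against 223 to 733 CPM. These genes were named after their values were seen, and no cause was tested. Het-2 was the lowest library for 20 of the 104 genes and het-3 for 16.

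Between homo and het mice, all 7 list genes with an unadjusted p under 0.05 were higher in homo mice, and none had an edgeR adjusted p under 0.05. They were 6.73% of the 104 genes, against 2.48% of all genes. On the log2 scale complement C3 differed by 0.84 (SE 0.21), complement factor B (Cfb) by 1.23 (SE 0.36) and the peptidase inhibitor A2m by 0.87 (SE 0.26). The other 4 were Serpina3n at 0.71 (SE 0.28), Creb3l4 at 0.38 (SE 0.12), Spdef at 0.35 (SE 0.15) and Tgm2 at 0.35 (SE 0.13). C3 measured 11.9 to 15.8 CPM in homo, 6.81 to 8.55 CPM in het and 5.79 to 13.1 CPM in WT libraries, so that homo and het libraries did not overlap and homo and WT libraries did.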
